A study of Homo sapiens with 4 samples.

Results

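The genes described here are the well expressed members of the human ZNF gene series, which code for zinc finger proteins. A gene was taken if its symbol is ZNF followed by digits, with or without a closing letter, and if its mean over the 4 libraries was at least 10 CPM (counts scaled to a common library total). Where a symbol had several rows, the row with the highest mean count stood for it. The rule took 181 genes out of 507 ZNF symbols, in a table of 20323 gene rows. The mean over all libraries chose the members, so their levels are a description, while the difference between the groups was not used by the rule.

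The cells were HCT-8 cells resistant to 5-fluorouracil. HCT-8 is a line from a human colorectal cancer. In the METTL14 overexpression group (2 libraries) they carried a METTL14 plasmid, and in the control group (2 libraries) a negative control plasmid. METTL14 pairs with METTL3 in the complex that writes N6-methyladenosine (m6A) on mRNA. Every library came from cells given cycloheximide, which blocks translation elongation, at 100 ug/mL, so cells without it are not represented. The mRNA was measured by poly(A) RNA sequencing, and the series states that the work was done as separate experiments.

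Zinc finger proteins of the C2H2 type hold short folds in which a pair of cysteines and a pair of histidines grip a zinc ion, and tandem arrays of such fingers recognise DNA sequences. Many human ZNF genes, clustered on chromosome 19, add a KRAB box, which recruits the co-repressor TRIM28 and through it the histone methyltransferase SETDB1 and heterochromatin proteins. Their best known task is to silence retroelements. Others carry a SCAN box, through which proteins pair, or have no box and act in transcription, splicing, mitosis or ribosome quality control.

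Total counts were 19206661 and 19829158 in the METTL14 overexpression libraries and 20161082 and 19247784 in the controls. METTL14 itself had 7593 and 8516 counts with its plasmid, against 472 and 598 in the controls, which was 14.7-fold higher (log2 fold change 3.88 with SE 0.141, edgeR adjusted p = 7.33e-05). The METTL14 libraries differed by 3.29 in chi-square per degree of freedom, and the controls by 28.8. Of 12 markers of colorectal epithelium, 11 were at 1 CPM or more with METTL14 and 10 in the controls, with summed levels of 9526 and 9369 CPM with METTL14 against 17420 and 12100 CPM in the controls. Most of this sum is KRT8 and KRT18, which were lower with METTL14 (log2 fold change -0.90 and -0.92), as was KRT19 (-0.39). CDH17 (1.87), CDH1 (0.74), LGALS4 (0.44) and CDX2 (0.44) were higher, EPCAM had -0.01, and the median of the 11 tested markers was 0.25. Of 10 fibroblast markers 3 reached 1 CPM with METTL14 and 4 in the controls (sums of 18.7 to 20.7 CPM against 12.8 to 16.5 CPM). Of 10 leukocyte markers 3 and 2 reached it (71.5 and 71.6 CPM with METTL14 against 19.6 and 19.9 CPM in the controls), with CD3D, CD3E and MS4A1 at 0. Of 8 endothelial markers 2 and 1 reached it (13.5 to 14.7 CPM against 9.04 to 10.3 CPM), with KDR at 0. Whether the shift in these marker sums had a part in the results below was not tested.

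The fingers of many of these genes follow 1 scheme. The coding stretches below show it for the 3 largest rises and the 3 largest falls whose transcript codes for the conserved linker followed by a complete finger. Each is 84 bases of the GENCODE release 29 transcript, 5′ to 3′, with the 15 bases of the linker in capitals and the finger that follows in lower case.
ZNF516: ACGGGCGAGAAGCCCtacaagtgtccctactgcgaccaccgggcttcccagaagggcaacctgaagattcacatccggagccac
ZNF555: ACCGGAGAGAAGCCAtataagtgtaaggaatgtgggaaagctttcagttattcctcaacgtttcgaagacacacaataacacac
ZNF554: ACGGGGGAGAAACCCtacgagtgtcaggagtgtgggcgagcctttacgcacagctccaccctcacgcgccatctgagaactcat
ZNF180: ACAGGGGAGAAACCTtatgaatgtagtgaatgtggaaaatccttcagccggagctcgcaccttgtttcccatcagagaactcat
ZNF480: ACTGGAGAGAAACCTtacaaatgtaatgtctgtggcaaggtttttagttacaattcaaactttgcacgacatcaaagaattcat
ZNF33A: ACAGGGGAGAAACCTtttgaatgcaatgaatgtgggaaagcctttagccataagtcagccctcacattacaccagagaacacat
Between any pair of these stretches 42.9 to 75% of the 84 bases were identical, and 11 to 15 of the 15 linker bases. The stretches were picked by the pattern of linker and finger, so part of this identity was fixed by the choice. The closest pair was ZNF180 and ZNF33A, both among the falls, with 63 identical bases. The stretch of ZNF516, which has no KRAB box, was the least like the others. Where stretches are identical over a read's length, reads match more than 1 gene. Of the 181 genes, 41 shared at least 1 stretch of 75 bases with the coding transcript of another gene row. Of these, 8 shared 10% or more of theirs. A single coding transcript stood for each row, so sharing with other transcripts and non-coding genes was not counted. A further overlap is positional: 35 of the genes shared at least 10% of their exon bases with another gene.

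All 181 genes have a coding transcript in GENCODE. A search of the proteins translated from these transcripts found a KRAB box in 87 and a SCAN box in 15, and 9 proteins had both. The count of C2H2 fingers ran from 0 to 34, with a median of 9. ZNF462 had the 34 fingers, and in 7 proteins the pattern searched for was not found. KRAB proteins had a median of 12 fingers and 5 conserved linkers, and proteins without KRAB a median of 7 fingers and 0 linkers. Chromosome 19 held 61 of the genes, 44 of them with a KRAB box. Chromosome 16 held 17, chromosome 7 held 16 and chromosome 1 held 10.

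Most members were expressed modestly. Their mean level had a median of 21.4 CPM, with quartiles at 15.3 and 37.1 CPM and a range from 10.03 to 461.4 CPM. Between 10 and 20 CPM lay 78 genes, between 20 and 50 CPM lay 82, and 6 were above 100 CPM. The lowest count of any member was 106 and 143 in the METTL14 libraries and 100 and 141 in the controls, so every value rests on an expected count of at least 100. Just inside the threshold stood ZNF587B (mean 10.03 CPM; 134 and 199 counts with METTL14, 241 and 215 in controls), ZNF12 (10.14 CPM) and ZNF133 (10.29 CPM). Just outside it stood ZNF845 (9.94 CPM; 131 and 198 counts with METTL14, 197 and 253 in controls), ZNF600 (9.89 CPM) and ZNF850 (9.70 CPM). Of the members, 158 averaged at least 10 CPM in both groups, 12 were under 10 CPM with METTL14 only and 11 were under 10 CPM in the controls only. These genes passed the rule through the group where they are high, and the test called 11 of the 12 lower and 8 of the 11 higher. Among them are ZNF467, ZNF862, ZNF555, ZNF554, ZNF518A, ZNF180, ZNF480, ZNF33A, ZNF805, ZNF551 and ZNF576, described below. The other 158 gave 40 higher and 26 lower.

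All members together held 0.641% and 0.648% of the counts in the METTL14 libraries, against 0.567% and 0.586% in the controls. In summed level this was 6408 and 6484 CPM with METTL14 and 5665 and 5856 CPM in controls. Both METTL14 libraries lay above both controls, and they still did without ZNF703, the most abundant gene (5764 and 5856 CPM against 5349 and 5598 CPM). The KRAB genes alone summed to 2013 and 2057 CPM with METTL14 and 1758 and 1836 CPM in controls. With 2 libraries a group, the smallest 2-sided p that an exact permutation test of such a sum can give is 0.333, so these sums are not called. In a bulk sample, more cells with a transcript and more RNA per cell cannot be told apart.

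Gene by gene, the ZNF genes moved in both directions. Of the 181, 48 were higher and 37 lower with METTL14, and 96 did not pass the test (edgeR's quasi-likelihood test, adjusted p below 0.05 by the Benjamini-Hochberg method, with 12700 genes tested). The called share, 47%, compares with 55.1% of all tested genes and with 60.1% of the 9540 tested genes that also averaged at least 10 CPM. In the direction of higher expression the shares were 26.5% of members against 27% of all genes, and in the direction of lower expression 20.4% against 28.1%. Among genes at 10 CPM or more, 27.9% were higher and 32.3% lower. The median log2 fold change was 0.02 in the members and -0.01 over all genes, and the quartiles were -0.21 and 0.37 in the members against -0.49 and 0.50 over all genes. A called change of 2-fold or more was found for 19 members (10.5%), against 19% of all genes and 15.5% of genes at 10 CPM or more. There was no overlap between the groups in 120 members (66.3%), 71 of them higher and 49 lower, against 79.8% of all genes. The median size of the log2 fold change, with its sign left out, was 0.35 in the members and 0.50 over all genes. Genes at 10 CPM or more, the set closer in level, had a median size of 0.454. Their median log2 fold change was -0.048, with quartiles at -0.496 and 0.411, and 82.5% of them had no overlap between the groups.

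**Figure D1:**
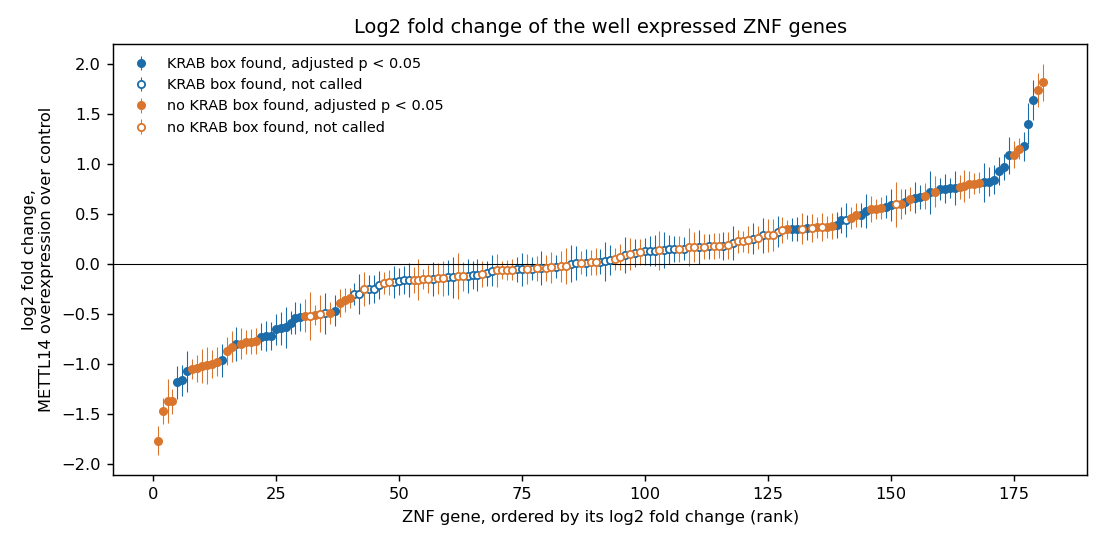
Log2 fold change of each of the 181 ZNF genes (METTL14 overexpression over control, y axis; bars are SE) in order of size (x axis), coloured by whether a KRAB box was found, with filled points for an adjusted p below 0.05. The values run from -1.77 (ZNF367) to 1.82 (ZNF467), and called genes with and without a KRAB box lie on both sides of 0.

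Calls changed when a library was left out. Leaving out each library in turn, the test called 29 of the 48 rises and 23 of the 37 falls each time, and no called member reversed in any of the alternatives run. In such a fit 1 group is a lone library, assumed to vary like the pair of the other group. Without a control the spread comes from the closer METTL14 pair alone, and 64 and 63 members were called higher, so calls gained there carry no check on the spread of controls. The genes described below with a fold change above 2 in either direction are among those called in each of these fits. Against a null of 1.5-fold in place of no change, 12 members were called higher and 15 lower, and 21.8% of all tested genes were called.

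The most abundant ZNF gene was ZNF703, a transcriptional co-repressor known as an amplified gene of luminal breast cancer. It had 12367 and 12454 counts in METTL14 cells and 6367 and 4965 in controls. Both METTL14 values lay far above the controls, which differed between themselves. In normalised level this was 625.3 ± 14.2 CPM against 293 ± 54.0 CPM (SD, n = 2 each), a log2 fold change of 1.09 (SE 0.137, edgeR adjusted p = 0.000612). Per kilobase of transcript it was also the most abundant, at 137.8 CPM per kb, ahead of ZNF593 (69.6), ZNF207 (66.9), ZNF664 (61.7) and ZNF768 (47.9), where the median member had 5.98. Next in CPM came ZNF664, with 5625 and 6234 counts in METTL14 cells and 6041 and 6801 in controls (log2 fold change -0.15, edgeR adjusted p = 0.246). Its counts overlapped between the groups, while its normalised levels did not (289 and 308 CPM with METTL14, 314.2 and 349 CPM in controls). Without control replicate 1 it was called (log2 fold change -0.22).

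ZNF217, an oncogene product that works with histone demethylase and CtBP co-repressors, had 3128 and 3243 counts with METTL14 and 1703 and 2183 in controls. The groups were apart, and it rose by 0.68 on the log2 scale (SE 0.128, edgeR adjusted p = 0.00367). ZNF106, an RNA-binding protein, had 2071 and 2288 counts in METTL14 cells and 2132 and 2290 in controls. ZNF768 had 2080 and 2233 counts with METTL14 and 2185 and 2192 in controls. Both had a log2 fold change of -0.06 (edgeR adjusted p = 0.64 and 0.622). The normalised levels of ZNF106 overlapped between the groups, and those of ZNF768 were close but did not (106.9 and 110.3 CPM with METTL14, 113.7 and 112.5 CPM in controls).

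Among the genes that rose, the largest change was in ZNF467 (GRCh38 chromosome 7, 149764182 to 149773479, minus strand), whose mouse counterpart is known for steering marrow stromal cells toward fat rather than bone. It had 433 and 444 counts with METTL14 and 100 and 142 in controls. Both METTL14 libraries lay well above both controls, and the normalised level was 22.1 ± 0.220 CPM against 6.25 ± 1.48 CPM (SD, n = 2; log2 fold change 1.82 with SE 0.185, edgeR adjusted p = 0.000288). ZNF516 (chromosome 18, 76358190 to 76495190, minus strand), known from mice as an activator of thermogenic genes in brown fat, followed with 895 and 885 counts in METTL14 cells against 214 and 306 in controls (log2 fold change 1.74 with SE 0.170, adjusted p = 0.000258). ZNF862, a KRAB protein in which no C2H2 pattern was found, had 553 and 531 counts in METTL14 cells against 134 and 206 in controls (1.64 with SE 0.200). In these 3 genes control replicate 1 held the lowest value.

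ZNF385A, a p53 cofactor that also binds RNA, had the smallest SE of the 10 largest rises. It had 1677 and 1641 counts with METTL14 and 737 and 716 in controls, which is 83.6 ± 3.60 CPM against 37.5 ± 1.13 CPM (SD, n = 2; log2 fold change 1.16 with SE 0.102, adjusted p = 0.00019). The KRAB genes ZNF555 (380 and 316 counts in METTL14 cells, 108 and 149 in controls; log2 fold change 1.40 with SE 0.204) and ZNF554 (333 and 330 counts against 145 and 141; 1.18 with SE 0.147) are neighbours. The KRAB gene ZNF226 had 414 and 463 counts with METTL14 and 165 and 237 in controls (1.09 with SE 0.185).

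ZNF8 had 682 and 686 counts in METTL14 cells and 308 and 374 in controls (log2 fold change 0.97 with SE 0.132). ZNF587, a KRAB gene known as a repressor of young retroviral elements, had 735 and 924 counts in METTL14 cells and 392 and 454 in controls (0.93 with SE 0.141). Both groups were apart in each gene, but the counts are less certain. ZNF8 shares 18.7% of its exon bases with another row of ZNF544, not with the row that stands for that gene here. ZNF587 shares 35% of its exon bases with ZNF417 and ZNF814.

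The largest fall was in ZNF367 (GRCh38 chromosome 9, 96385941 to 96418329, minus strand), a small protein with 2 fingers. It had 297 and 344 counts with METTL14 and 1167 and 961 in controls. Both METTL14 libraries lay below both controls, and the level was 16.1 ± 1.23 CPM against 55.01 ± 8.05 CPM (SD, n = 2), a log2 fold change of -1.77 (SE 0.144, edgeR adjusted p = 0.000155). ZNF326 (chromosome 1, 89995112 to 90035531, plus strand) is a subunit of the DBIRD complex, which couples RNA polymerase II elongation to splicing. It had 242 and 285 counts in METTL14 cells and 726 and 698 in controls (log2 fold change -1.47 with SE 0.127, adjusted p = 0.000177).

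ZNF207 was the most abundant of the genes that fell. Its product, also known as BuGZ, binds the spindle checkpoint protein BUB3 and microtubules. It had 1987 and 1984 counts in METTL14 cells and 4173 and 3863 in controls, or 100.1 ± 2.88 CPM against 207.7 ± 13.3 CPM (SD, n = 2; log2 fold change -1.05 with SE 0.101, adjusted p = 0.000242). The METTL14 libraries were nearly identical and the controls close to each other.

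ZNF512 had 230 and 240 counts with METTL14 and 560 and 628 in controls (log2 fold change -1.37 with SE 0.128). ZNF518A had 106 and 175 counts with METTL14 and 342 and 367 in controls (-1.38 with SE 0.220), and its METTL14 libraries differed most from each other among these falls. ZNF507 had 244 and 293 counts in METTL14 cells and 511 and 568 in controls (-1.04 with SE 0.137).

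The largest falls with a KRAB box were ZNF180 (134 and 174 counts in METTL14 cells, 345 and 336 in controls; log2 fold change -1.18 with SE 0.165), ZNF480 (121 and 143 against 292 and 285; -1.17 with SE 0.159) and ZNF33A (154 and 197 against 299 and 421; -1.07 with SE 0.204). In none of them did the groups overlap. ZNF280D had 187 and 209 counts in METTL14 cells and 339 and 444 in controls (-1.02 with SE 0.170). It has a second row in the files that shares 48.8% of its 75-base stretches, so the split of reads between them is uncertain.

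**Figure D2:**
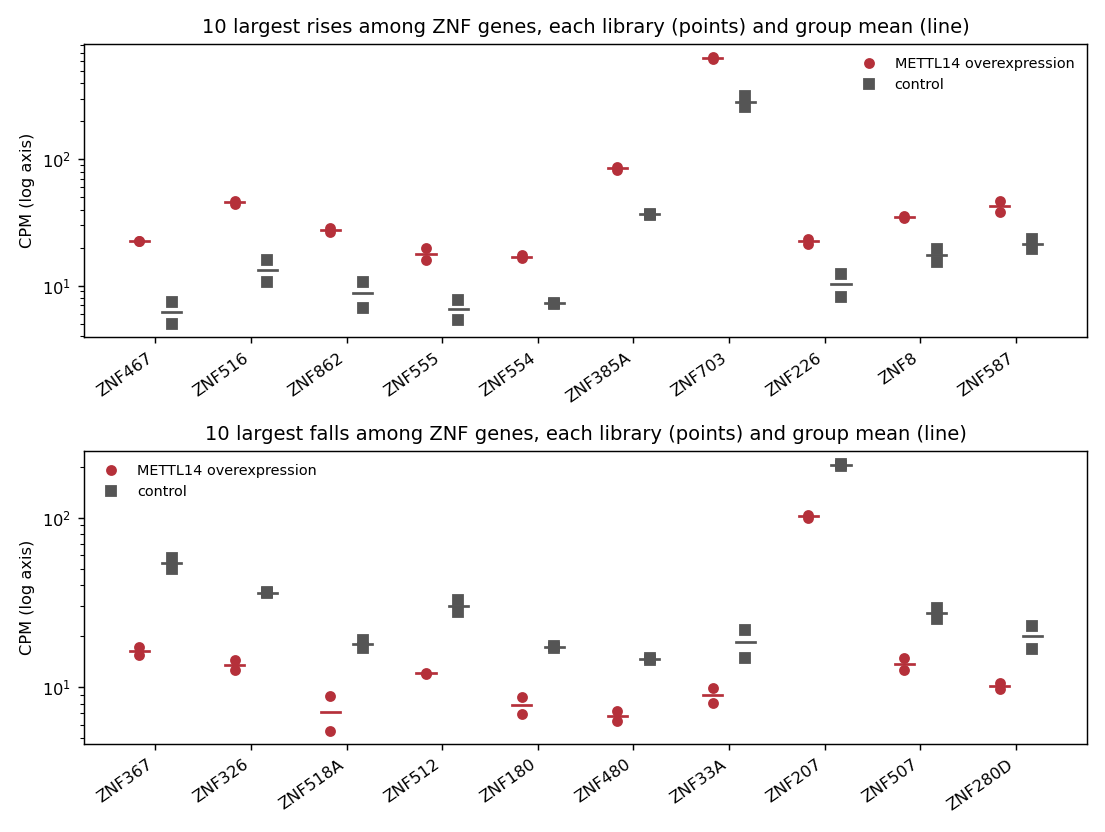
Level of the 10 largest rises (upper panel) and 10 largest falls (lower panel) among the ZNF genes in each library, in CPM on a log axis, with METTL14 overexpression as circles left of the control squares and lines at the group means. In none of these 20 genes do the groups overlap, and the controls of ZNF467, ZNF516 and ZNF862 are spread more widely than the METTL14 libraries.

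The promoter of ZNF367 is shown because it belongs to the gene that fell most. Its 250 bases before the transcription start (RefSeq, GRCh38.p14, chr9:96418371-96418620, minus strand) hold both forms of the letters bound by E2F factors, which control genes of S-phase entry. These are GCGCGAAA at position -35 and GCGGGAAA at position -21 (first base, counted back from the start), in capitals here.
ZNF367 promoter: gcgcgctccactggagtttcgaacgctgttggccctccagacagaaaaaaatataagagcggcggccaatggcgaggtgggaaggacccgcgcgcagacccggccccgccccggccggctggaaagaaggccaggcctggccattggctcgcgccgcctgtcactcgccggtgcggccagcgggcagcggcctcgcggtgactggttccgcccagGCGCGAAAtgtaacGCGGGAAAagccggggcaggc
Of the members, 160 matched the promoter table. On either strand (GCGGGAAA or its complement TTTCCCGC), the first form was found in 4 of them (2.5%) and in 1.42% of 27305 promoters, or 2.25% of those of 10128 tested genes. The 4 were ZNF367, ZNF644 and ZNF101, which fell, and ZNF687, which rose. The second form (GCGCGAAA or TTTCGCGC) was found in 3 members (1.88%), against 0.469% of all promoters and 0.879% of those of tested genes. These were ZNF367 and ZNF260, which fell, and ZNF74, which rose. CCAAT or ATTGG was present in 62 members (38.8%), against 33% of all promoters and 35.2% of those of tested genes, and 14 of the 62 were higher and 13 lower. A match describes these letters only.

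KRAB genes with higher and with lower expression were both found. Of 87 KRAB genes, 26 were higher and 15 lower, with a median log2 fold change of 0.04, and of 94 genes without KRAB 22 were higher and 22 lower, with a median of 0.02. In shares this was 29.9% higher and 17.2% lower with KRAB and 23.4% each way without, beside 27.9% higher and 32.3% lower for all genes at 10 CPM or more. The difference between these classes was not tested. The 9 genes with both KRAB and SCAN boxes gave 3 higher and 0 lower, and the 6 with SCAN alone gave 0 higher and 2 lower. With METTL14 replicate 1 or METTL14 replicate 2 left out, fewer KRAB genes were called each way, as were fewer of all tested genes. By number of fingers the counts were as follows: with 0 to 3 fingers 8 of 30 genes were higher and 9 lower, with 4 to 9 fingers 15 and 10 of 64, with 10 to 14 fingers 16 and 10 of 54, and with 15 or more fingers 9 and 8 of 33.

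The co-repressor machinery that KRAB proteins call on was mostly lower. Of 28 listed genes of this machinery, which are not ZNF genes, 17 were lower and 3 higher with METTL14 and 8 did not pass, with a median log2 fold change of -0.49, against -0.01 over all genes. The lower share was 60.7% and the higher share 10.7%, beside 32.3% and 27.9% of all tested genes at 10 CPM or more. TRIM28, which binds the KRAB box directly, had 7227 and 6911 counts in METTL14 cells and 17026 and 12539 in controls (log2 fold change -1.10 with SE 0.157, edgeR adjusted p = 0.00106). The groups were far apart, and the controls were unequal. CBX3, a heterochromatin protein 1 form that reads methylated histone H3, had 1563 and 1876 counts in METTL14 cells and 3362 and 3502 in controls (-1.04 with SE 0.109).

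DNMT1, the maintenance DNA methyltransferase, had 3741 and 3728 counts with METTL14 and 8657 and 6753 in controls (log2 fold change -1.08 with SE 0.138). UHRF1, which guides DNMT1 to newly copied DNA, fell most, with 799 and 733 counts in METTL14 cells and 4134 and 2660 in controls (-2.19 with SE 0.212). RBBP4 (-0.82), CBX5 (-0.76), SMARCAD1 (-0.76) and TRIM33 (-0.70) were lower too. So was TRIM24 (-0.80), named after its value was seen. The 3 higher genes, named after their values were seen, were the methyltransferase SETDB1 (0.35) and the nucleosome remodelling subunits MTA1 (0.32) and CHD4 (0.31). The call of SETDB1 was lost in DESeq2 (adjusted p = 0.0668), and that of CHD4 with the rows of its symbol summed (edgeR adjusted p = 0.108). All 3 calls were lost with METTL14 replicate 1 left out (log2 fold change 0.301 for SETDB1, 0.309 for MTA1 and 0.3 for CHD4). They were also lost with METTL14 replicate 2 left out (0.405, 0.328 and 0.321). Fewer genes of this list were lower with METTL14 replicate 1 or METTL14 replicate 2 left out, as were fewer of all tested genes.

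**Figure D3:**
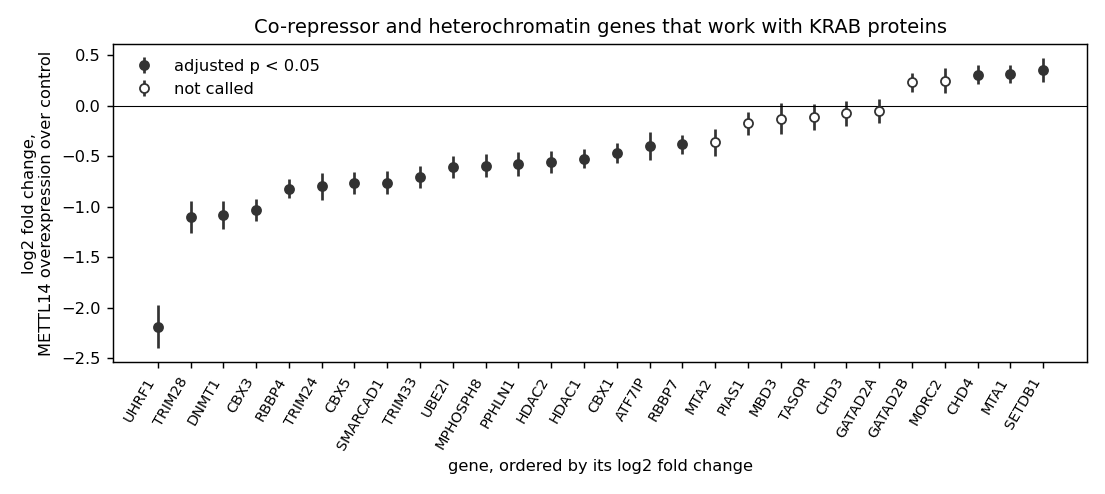
Log2 fold change (METTL14 overexpression over control, y axis; bars are SE) of the 28 co-repressor and heterochromatin genes, ordered by size along the x axis, with filled points for an adjusted p below 0.05. UHRF1 stands lowest at -2.19, TRIM28, DNMT1 and CBX3 lie near -1.1 to -1.04, and SETDB1 is highest at 0.35.

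Of the ZNF genes with roles in RNA handling and ribosome biology, all 10 of the list were members, and 5 fell, 1 rose and 4 did not pass. The called share of 60% is near the 60.1% of all genes at 10 CPM or more. Besides ZNF385A (the rise) and ZNF326, 4 more moved. ZNF638, which binds RNA and takes part in splicing and in silencing of foreign DNA, had 696 and 755 counts in METTL14 cells and 1098 and 1327 in controls (log2 fold change -0.78 with SE 0.123, edgeR adjusted p = 0.00166). ZNF473, a component of the U7 machinery that trims histone mRNA ends, had 712 and 684 counts in METTL14 cells and 1064 and 981 in controls (-0.59 with SE 0.113). Its call was lost without METTL14 replicate 2 (adjusted p = 0.0529).

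ZNF622 and ZNF593 are known, from their yeast counterparts, to act in maturation of the large ribosomal subunit. ZNF622 had 803 and 811 counts with METTL14 and 1083 and 931 in controls (log2 fold change -0.36, edgeR adjusted p = 0.0385). ZNF593 had 796 and 855 counts with METTL14 and 1003 and 1031 in controls (-0.34, adjusted p = 0.0261), and its exons lie wholly within those of ZNF593OS on the opposite strand. Without a stated strand setting of the counting, reads of these genes cannot be told apart. With all libraries, both calls were lost in DESeq2 (adjusted p = 0.0731 for ZNF622 and 0.0713 for ZNF593). They were also lost with library totals (edgeR adjusted p = 0.0533 and 0.0571). Both were lost too with METTL14 replicate 1 left out (log2 fold change -0.37 for ZNF622 and -0.31 for ZNF593) or METTL14 replicate 2 left out (-0.34 and -0.36). ZNF598, the ubiquitin ligase that senses collided ribosomes, had 1775 and 1722 counts in METTL14 cells and 1500 and 1196 in controls (0.34, adjusted p = 0.0627). The groups were apart, and it was called without either control, where the spread comes from the METTL14 pair alone (log2 fold change 0.52 without control replicate 1, 0.17 without control replicate 2). Scaled by library totals, the list counted 2 higher and 3 lower. Fewer of its genes were lower with METTL14 replicate 1 or METTL14 replicate 2 left out, as were fewer of all tested genes.

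Of 34 ZNF genes listed for roles in chromatin and transcription, 25 were members, and 7 rose, 2 fell and 16 did not pass, with a median log2 fold change of 0.12. The higher share of 28% is near the 27.9% of all genes at 10 CPM or more, and the lower share was 8% against 32.3%. The rises were ZNF516, ZNF703 and ZNF217, described above, and ZNF652, ZNF687, ZNF318 and ZNF609. ZNF687, a partner of the chromatin reader ZMYND8, had 1515 and 1524 counts in METTL14 cells and 1040 and 984 in controls (log2 fold change 0.55 with SE 0.0995, edgeR adjusted p = 0.00299). ZNF652, a co-repressor partner of CBFA2T3, had 634 and 704 counts in METTL14 cells and 369 and 490 in controls (0.60 with SE 0.152). ZNF318 (0.38) and ZNF609 (0.35) lost their calls without METTL14 replicate 1 (adjusted p = 0.11 and 0.148) and without METTL14 replicate 2 (0.216 and 0.236).

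The falls in this list were ZNF76 and ZNF644. ZNF76, a relative of ZNF143 that acts at small nuclear RNA promoters, had 233 and 218 counts in METTL14 cells and 452 and 427 in controls (log2 fold change -0.998 with SE 0.138, edgeR adjusted p = 0.000939). ZNF644, which works with the histone methyltransferases G9a and GLP, had 353 and 432 counts in METTL14 cells and 631 and 673 in controls (-0.77 with SE 0.129). More genes of the list were lower with control replicate 1 or control replicate 2 left out, as were more of all tested genes.

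Of 6 listed ZNF genes of cell division and DNA repair, 3 were members. ZNF367 and ZNF207 fell, as given above. Among all tested genes at 10 CPM or more 32.3% were lower and 27.9% higher, and 3 genes are too few to set beside these shares. ZNF668, which acts in the DNA damage response, had 329 and 333 counts in METTL14 cells and 436 and 265 in controls. Its METTL14 values lay between the controls (log2 fold change -0.12, edgeR adjusted p = 0.68), and the sign turned without control replicate 1 (0.30), while it was called lower without control replicate 2 (-0.446, adjusted p = 0.000657). Of 10 listed KRAB genes with known retroelement targets, only ZNF587 (higher) and ZNF33A (lower) reached 10 CPM.

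On chromosome 19, 20 of 61 members were higher and 14 lower (32.8% and 23%), beside 271 and 256 of the 956 tested genes of that chromosome (28.3% and 26.8%). On the other chromosomes 28 of 120 members were higher and 23 lower. Neighbours were then compared. Of 50 pairs of members next to each other in the member list and within 100 kb on the GENCODE annotation, both genes were called in 10 pairs. In 7 of these both were higher, in 1 both were lower and in 2 they went opposite ways. Several of these pairs share a gene or overlap in position, so they are not separate observations. Several also hold a gene that passed the rule only through the group where it is high, as given above. Singly, 26.5% of members were higher and 20.4% lower, against 27% and 28.1% of all tested genes. Neighbouring pairs of all genes were not counted, so 7 against 1 is not read as a result about neighbours.

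The genes of these pairs are named after their values were seen. ZNF554 and ZNF555 (GRCh38 chromosome 19, 2819874 to 2835773 and 2841435 to 2860484, plus strand) lie 5662 bases apart, and rose by 1.18 and 1.40 on the log2 scale. The next member, ZNF57, had 291 and 263 counts in METTL14 cells and 236 and 358 in controls (log2 fold change -0.13, edgeR adjusted p = 0.612). Its groups overlapped, and it was called lower without control replicate 1 (-0.39), while its sign turned without control replicate 2 (0.18). On chromosome 7, ZNF467 and ZNF862 lie 64888 bases apart and were the first and the third of the rises.

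A run of 4 members on chromosome 19 rose together: ZNF579 (log2 fold change 0.65), ZNF865 (0.77), ZNF580 (0.49) and ZNF581 (0.78). ZNF580 and ZNF581 overlap in position, and ZNF581 shares 23.4% of its exon bases with other genes, ZNF580 among them. The call of ZNF580 was lost without METTL14 replicate 1 (adjusted p = 0.135) or 2 (0.0591). ZNF264 (0.63) and ZNF805 (0.82) rose as a pair, and ZNF805 lost its call without METTL14 replicate 2 (adjusted p = 0.0679). The pair in which both fell was ZNF428 (-0.87) and ZNF576 (-0.52). ZNF576 lost its call in DESeq2 (adjusted p = 0.0835) and with library totals (edgeR adjusted p = 0.0509). Its call was also lost without METTL14 replicate 1 (log2 fold change -0.457) or 2 (-0.579). The other pair that rose, ZNF585B (0.44) and ZNF875 (0.67), lies 94684 bases apart, and ZNF585B lost its call in DESeq2 (adjusted p = 0.0574) and without METTL14 replicate 1 (0.122) or 2 (0.255).

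The opposite pairs were ZNF544 with ZNF8 and ZNF211 with ZNF551. ZNF544 had 481 and 451 counts in METTL14 cells and 813 and 691 in controls (log2 fold change -0.73), while ZNF8, which starts 1456 bases after it on the same strand, rose by 0.97. Another row of ZNF544 shares exon bases with both genes, so the split of reads between these rows is uncertain. ZNF211 had 460 and 441 counts in METTL14 cells and 222 and 297 in controls (0.76). ZNF551 had 162 and 173 counts in METTL14 cells and 265 and 273 in controls (-0.72), and its call was lost without METTL14 replicate 1 (adjusted p = 0.0584). These pairs, next to each other in the member list, were thus called with opposite signs, within the limits just given. In each of these 4 genes the groups were apart.

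**Figure D4:**
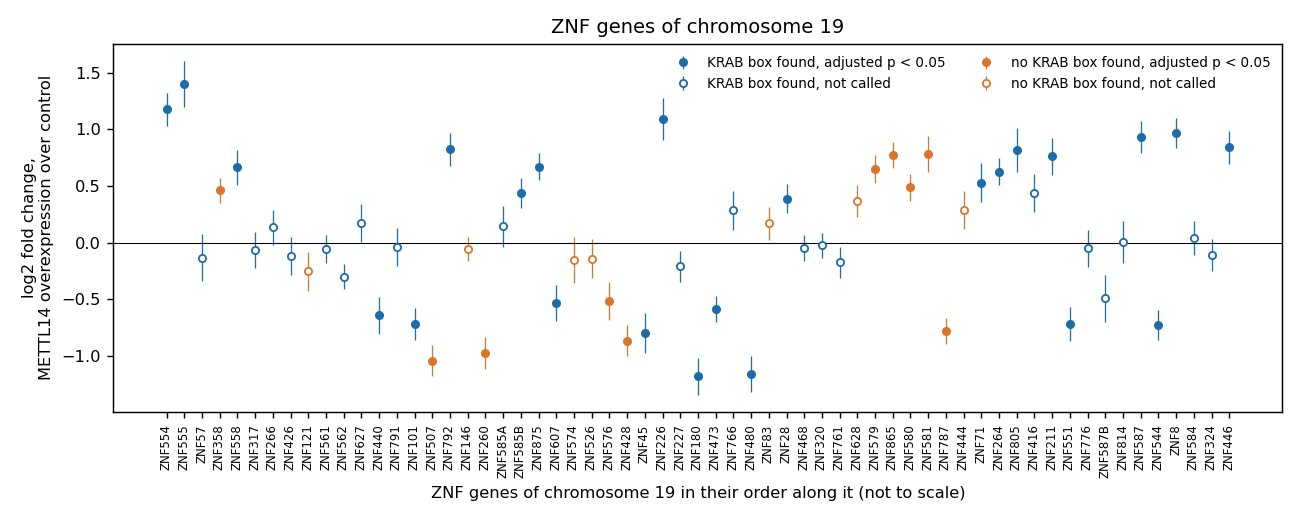
Log2 fold change (METTL14 overexpression over control, y axis; bars are SE) of the 61 ZNF genes of chromosome 19 in their order along it (x axis, not to scale), coloured by KRAB box, with filled points for an adjusted p below 0.05. Calls of both signs occur along the order, with ZNF555 highest at 1.40 and ZNF180 lowest at -1.18.

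Base composition moved with the changes. Members whose transcript had under 40% G and C numbered 21, and 12 of them were lower and 2 higher, with a median log2 fold change of -0.49. Of 55 members with at least 55% G and C, 5 were lower and 17 higher, with a median of 0.15. The same order was seen over all tested genes, where 42.1% were lower and 12.1% higher in the low class and 21% lower and 34.3% higher in the high class. These are descriptions across genes of the same libraries, which are not independent replicates. At least one GGACT, the commonest m6A context, was present in 92.8% of members and 91.7% of all genes, at a median of 0.819 and 0.952 per kb. ZNF518A, ZNF480, ZNF33A, ZNF280D, ZNF507 and ZNF326, named above among the falls, are among the class under 40%, and what base composition contributed was not tested.

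Below the level of 10 CPM the balance between higher and lower genes was another. Of 326 such ZNF genes, 49 were at 0 in all libraries, 121 in all had too few counts to be tested and 205 were tested. Of these 205, 19 were higher and 53 lower (9.3% and 25.9%), while of all 3160 tested genes under 10 CPM 39.9% were called, 24.4% higher and 15.5% lower. The KRAB genes among them numbered 154, with 10 higher and 44 lower and a median log2 fold change of -0.28. An example just below the level is ZNF850, with 91 and 116 counts in METTL14 cells and 281 and 275 in controls (log2 fold change -1.46, edgeR adjusted p = 0.000526). With METTL14 replicate 1 or METTL14 replicate 2 left out, fewer of these 205 genes were called each way, as were fewer of all tested genes. The summed level of the 326 ZNF genes was 939 and 1005 CPM with METTL14 and 1009 and 1132 CPM in controls. These sets pass a filter on counts, so the shares are given as a description. Within the members, the 78 genes at 10 to 20 CPM gave 15 higher and 20 lower (19.2% and 25.6%). The 82 at 20 to 50 CPM gave 25 and 14 (30.5% and 17.1%). The 21 at 50 CPM or more gave 8 and 3 (38.1% and 14.3%). Of all genes at 10 CPM or more, 27.9% were higher and 32.3% lower, and these were not counted in the same bands. The Spearman correlation of mean level with log2 fold change was 0.126 in the members and -0.101 over all tested genes.

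**Figure D5:**
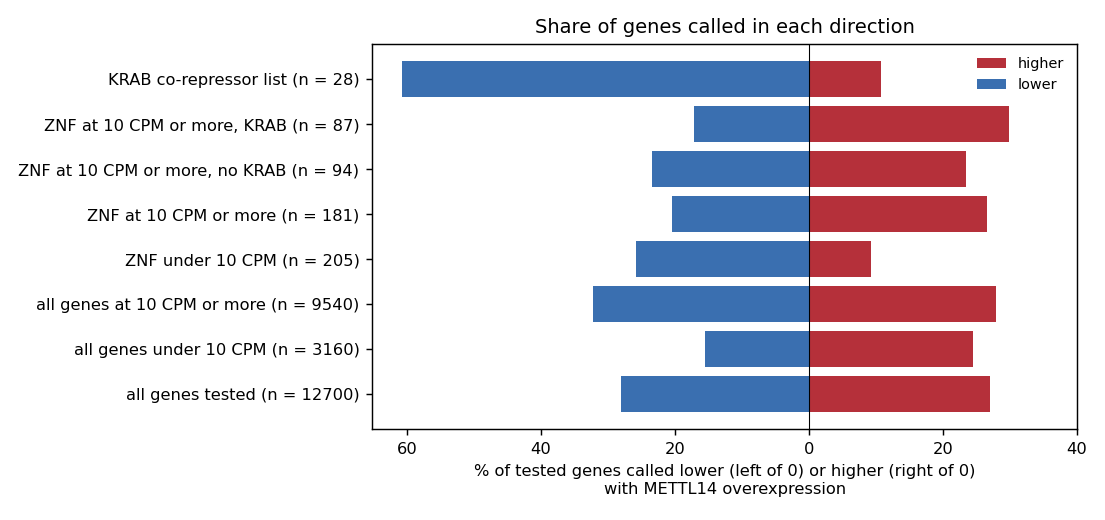
Percentage of tested genes called higher (right of 0) or lower (left of 0) with METTL14 overexpression, for the co-repressor list, the ZNF genes by KRAB box and level, and all genes by level. Lower calls make up 60.7% of the co-repressor list, 25.9% of ZNF genes under 10 CPM and 20.4% of those at 10 CPM or more.

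Other zinc finger families of the same cells were counted beside all tested genes, of which 27% were higher and 28.1% lower. Of 38 tested ZBTB genes, which carry a BTB domain for pairing, 10 were higher and 1 lower (median log2 fold change 0.17). Of 21 tested ZSCAN and ZKSCAN genes 7 were higher and 1 lower (0.36), and of 13 tested ZFP genes 4 were higher and 1 lower (0.36). Whether these families differ from the ZNF genes was not tested.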

How the data were processed

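Poly(A) RNA of 2 METTL14 overexpression and 2 control libraries was sequenced, and groups and replicate numbers come from the labels. For each gene the authors deposited an expected count, which was not normalized. Between 10.8 and 11.6% of a library's values are not whole, and they were rounded here. The submitters' processing notes list RSEM, fastp, HISAT2, Bowtie2 and StringTie as tools and hg18 as the build. Versions and the strand setting are not given in the sources used here. Of the gene rows, 102 have no symbol, and 20171 of 20323 identifiers are in GENCODE release 29, which annotates GRCh38, and this leaves unclear which build the counts rest on. Positions, transcripts, base composition and exon overlap were taken from that release, and promoters from RefSeq.

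After filterByExpr at a minimum count of 10, the whole table was scaled by TMM and fitted with the robust quasi-likelihood method of edgeR 4.0.16, in R 4.3.3. No covariate was used, and Benjamini-Hochberg adjustment ran over all 12700 genes tested. SE was approximated from the log2 fold change and F (its size over the root of F). Biological variation, as edgeR's common coefficient, was 10.8%. Means ± SD are TMM-normalised CPM, and levels without an SD are counts scaled by the library total. KRAB and SCAN boxes were found with profiles (pyhmmer 0.12.3) built from 242 and 19 windows of the translated transcripts. C2H2 fingers were counted by a regular pattern of cysteine and histidine spacing, and fingers of other spacing are missed.

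Genes named are METTL14, the 6 most abundant members, the 10 largest rises and 10 largest falls among called members without overlap, up to 4 members of each role list and 8 of the co-repressor list by p, the 3 genes on either side of the level of 10 CPM, and members that an alternative changes. Others were named after their values were seen, among them the promoter matches, the neighbours and the further members of role lists. The members, the lists and the tests were chosen with earlier results of these data known. On simulated counts for METTL14 overexpression over control (12576 genes tested), the procedure recovered 44% of genes changed 1.5-fold, 92% of those changed 2-fold, 100% of those changed 4-fold and 98% of those changed 8-fold, and 9 of its 176 calls were false. The simulation changed 50 genes at each fold and gave all genes and both groups the same spread. In the data 55.1% of genes were called, and the controls differed more than the METTL14 libraries (chi-square per degree of freedom 28.8 against 3.29). These rates therefore need not hold for the data. Depth (totals of 19206661 to 20161082 counts) leaves members at least 100 counts. If the libraries of a group are not from separate cultures, p-values reflect technical spread only.

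Tried besides were DESeq2 1.42.0, edgeR on the size factors of DESeq2, limma-voom (limma 3.58.1), library totals, no filter, at least 5 CPM in 2 libraries as the filter, the fit without the robust step, the replicate number as a block, a null of 1.5-fold (glmTreat), leaving out each library, summing the rows of a symbol, and other levels for membership.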

Additional observations from a re-analysis of the deposited data

How the results depend on the processing

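The counts of members called higher (48) and lower (37) stayed within 1.5 times in DESeq2, with its size factors, limma-voom, library totals, no filter, a filter of 5 CPM, no robust step and summed rows. Against a null of 1.5-fold, 12 members and 1416 of all tested genes were higher, and 15 members and 1357 of all tested genes were lower. Leaving out each library gave 32 to 64 members higher and 25 to 52 lower, and 2307 to 4452 of all genes higher and 2307 to 4575 lower. The median log2 fold change of the members (0.024) was 0.027 to 0.065 without a library, 0.071 with library totals and 0.051 with the filter of 5 CPM. With members taken at 5 CPM (281 genes) the median was -0.02 and 64 were lower, and at 20 CPM (103 genes) it was 0.111 and 17 were lower. Taken at 10 CPM in the METTL14 libraries only it was 0.13, and in the controls only -0.05. A level set in 1 group selects on the difference between groups.

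Replicate numbers pair the samples by number only. Across genes, the deviations of replicate 1 from its group mean had a correlation of 0.0443 between the groups. With 2 libraries a group, replicate 2 gives the same value and adds nothing. With the replicate block, 54 members were higher and 40 lower, and 3797 and 3903 of all genes.

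The sign turned for 3 named genes that were not called: ZNF668 (0.297 without control replicate 1, -0.446 and called without control replicate 2), ZNF600 (-0.004 without control replicate 1, 0.383 and called without control replicate 2) and ZNF57 (-0.393 and called without control replicate 1, 0.183 without control replicate 2). The cause was not tested. With 2 libraries a group, p-values rest on the spread shared over genes. Members rest on at least 100 counts in each library, while 121 ZNF genes under 10 CPM had too few counts to be tested.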
